A study of Mus musculus with 9 samples.

Results

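Cadherins and protocadherins are cell surface proteins that hold cells together and help neurons tell each other apart. The genes described here are the protein-coding mouse genes whose symbol is Cdh followed by a number or starts with Pcdh. The rule, which used names and gene types only, found 91 genes among the 54838 of the deposited table, 22 Cdh genes and 69 Pcdh genes. Of the Pcdh genes, 57 lie in the alpha, beta and gamma clusters and 12 lie outside them. They were followed across 9 libraries of mouse cells, 3 from cells labelled mCherry, 3 from cells labelled c-fos and 3 from cells labelled overlap. The label overlap is read here as cells carrying both labels, which follows the design text of the series, where cells marked by CRD, by His or by both are compared. The sources used here do not say which of these 2 names stands for the mCherry cells and which for the c-fos cells. Strain, age, sex, treatment, time after treatment and the driver of the mCherry label are not stated either, and the field for genotype holds only the group name.

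Cells were cut out of fixed frozen tissue by laser capture and their polyadenylated RNA was sequenced from its 3' end with Smart-3SEQ. The title of the series names the basolateral amygdala, while the labels give the cell type as spermatocytes and the extraction text speaks of embedded testis tissue. Summed levels of 10 pan-neuronal markers ran from 2444 to 3777 CPM (a gene's counts scaled to a library's total, the same total for all libraries) over the 9 libraries, and all 10 had counts. Summed levels of 18 spermatocyte markers ran from 45.3 to 264 CPM, with Mael, Pgk2, Spo11, Sycp1 and Tdrd1 at 0 counts, and those of 7 basolateral amygdala markers, all with counts, from 138 to 502 CPM. The labels tie no library to an animal, so libraries may share one, p-values over libraries may then be too small, and they measure only the spread between these libraries, which may be technical. Libraries held 90091 to 429317 counts, so that 3 counts stand for 33.3 CPM in the shallowest and 6.99 CPM in the deepest. Library mCherry 3 and library overlap 1 stood apart by their pancreatic hormone transcripts (Ins1, Ins2, Gcg and Iapp), 9373 and 21978 CPM against 298 to 1137 CPM in the other 7.

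Classical cadherins bind the same cadherin on the neighbouring cell in a calcium-dependent way and reach the actin skeleton through beta-catenin and alpha-catenin. Type I members such as N-cadherin form strong junctions, and type II members are expressed in patterns that mark out brain nuclei and circuits. Protocadherins outside the clusters include the delta protocadherins, which bind more weakly and some of which signal to actin through the WAVE complex. The clustered protocadherins give a neuron a combination of isoforms by choice among alternative first exons, and this combination serves self-recognition of its own branches.

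The members together held 5596 counts, 0.254% of the 2199270 counts of the 9 libraries. Of the 91 genes, 24 had no count in any library, 34 had 1 to 19 counts and 33 had at least 20. The filter on low counts of the fit let 22 members through, which held 88.4% of the members' counts, and 15 of these 22 had a count in every library. The number of members with a count was 34.3 ± 6.66 (SD, n = 3) per mCherry library, 33.3 ± 3.79 per c-fos library and 30.0 ± 4.58 per overlap library. With every library set to the depth of the shallowest, the expected numbers were 27.8 ± 4.38, 29.5 ± 0.80 and 27.2 ± 2.497. All c-fos libraries then lay between 28.5 and 29.9, while the mCherry libraries ran from 23.6 to 32.3 and the overlap libraries from 25 to 29.9, so the groups overlapped.

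The clustered protocadherins were the class in which gene and count are hardest to match. In the GENCODE M21 annotation, which belongs to another build than the files and was used for gene structure only, the 3' end of 36 members lies in exons of another gene on the same strand. These are all 14 alpha genes, all 21 gamma genes and Pcdhb21, whose end lies in Pcdhb22. A read from such an end fits several genes, and the sources used here do not say how the authors' counting treated it. The 36 members with a shared end held 559 counts in all and 19 of them had none, whereas the 55 members with an end of their own held 5037 counts and 5 of them had none. The median total was 0 counts per gene in the first set and 26 in the second. These sets differ in gene class, since the first holds clustered genes only and the second all members outside the clusters. Within the clusters the median was 0 for alpha genes, 3 for gamma genes and 3.5 for beta genes, which all but Pcdhb21 have their own end.

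Within the clusters the counts were unevenly spread. The 14 alpha genes, whose transcripts end in common constant exons, held 11 counts in total, with 9 genes at 0. The 22 beta genes, most of which are single-exon genes with an end of their own, held 315 counts, with 4 genes at 0. The 21 gamma genes held 480 counts. Of these, Pcdhgc4 held 174, Pcdhga12 held 144 and Pcdhgc5 held 117. These 3 genes made up 90.6% of the gamma counts (95% exact interval 87.7% to 93.1%, counting error only), and the other 18 held 45 counts in all. In the annotation, Pcdhgc4 and Pcdhga12 each have 1 transcript end that no other gene on the strand covers, while Pcdhgc5 has none. Such an end is not particular to genes with many counts. Pcdhgb2 and Pcdhgb4 have 1 too, with 6 and 3 counts, and so do Pcdhga1, Pcdhga4, Pcdhga7, Pcdhga9, Pcdhgb5 and Pcdhgc3, with 0 counts. Counts of single alpha and gamma genes are therefore uncertain, and the isoform that a neuron chose cannot be read from them.

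**Figure D1:**
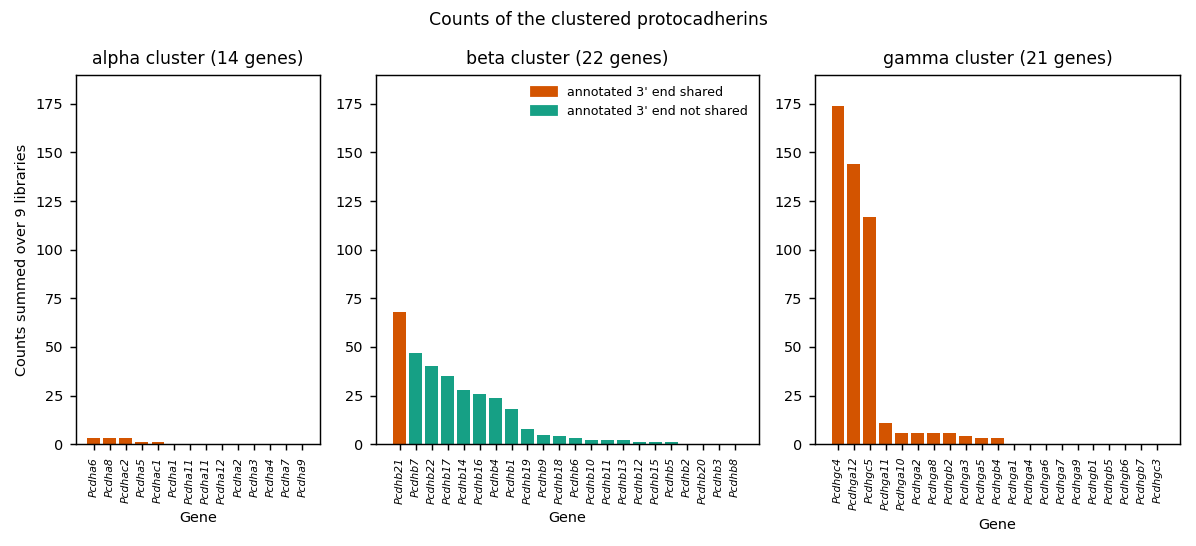
Counts summed over the 9 libraries for each clustered protocadherin, 1 bar a gene, in 3 panels for the alpha, beta and gamma clusters, where orange bars are genes whose annotated 3' end lies in another gene of the strand and green bars are genes with an end of their own. The alpha genes total 11 counts, and Pcdhgc4, Pcdhga12 and Pcdhgc5 hold 435 of the 480 gamma counts.

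Since c-Fos is a subunit of AP-1, a transcription factor that binds TGANTCA, and activity-regulated promoters often hold the CRE TGACGTCA, both motifs were looked for on both strands of RefSeq promoter windows (build GRCm38.p6), which run from 250 bases before to 50 after the start of transcription. Windows were at hand for 22 of the 91 members, 25 windows in all. Of these, 0 held TGANTCA, against 7.81% of all 32851 windows, and 0 held TGACGTCA, against 1.79%. The shorter motif TGACG, which also lies within the full CRE, was found in 4 windows, those of Cdh8, Pcdh10 and Pcdh9, against 20.8% of all windows. The window of Pcdh10 is shown because Pcdh10 was among the members with most counts and is the one with 2 matches, in capitals below. It lies at chr3:45378148-45378447 on the plus strand.
Pcdh10: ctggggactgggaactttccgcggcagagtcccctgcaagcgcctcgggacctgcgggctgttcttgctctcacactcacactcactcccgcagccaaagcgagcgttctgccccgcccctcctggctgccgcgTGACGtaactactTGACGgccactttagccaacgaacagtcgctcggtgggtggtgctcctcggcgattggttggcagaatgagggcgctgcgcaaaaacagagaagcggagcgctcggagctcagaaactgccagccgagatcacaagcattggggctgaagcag
A match is a string of letters, not a bound site, and the lack of one says only that these letters are not in the window.

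The counts of the members were concentrated in few genes, and 10 genes held 66.8% of them. These were Pcdh7, Pcdh10, Pcdh17, Pcdh15, Cdh17, Pcdh1, Cdh6, Cdh4, Cdh12 and Pcdhgc4. Counts of different genes were not divided by length, and no order of expression is read from them. Levels of single genes are given as TMM-scaled CPM, CPM after the scaling of edgeR, with the SD over 3 libraries.

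**Figure D2:**
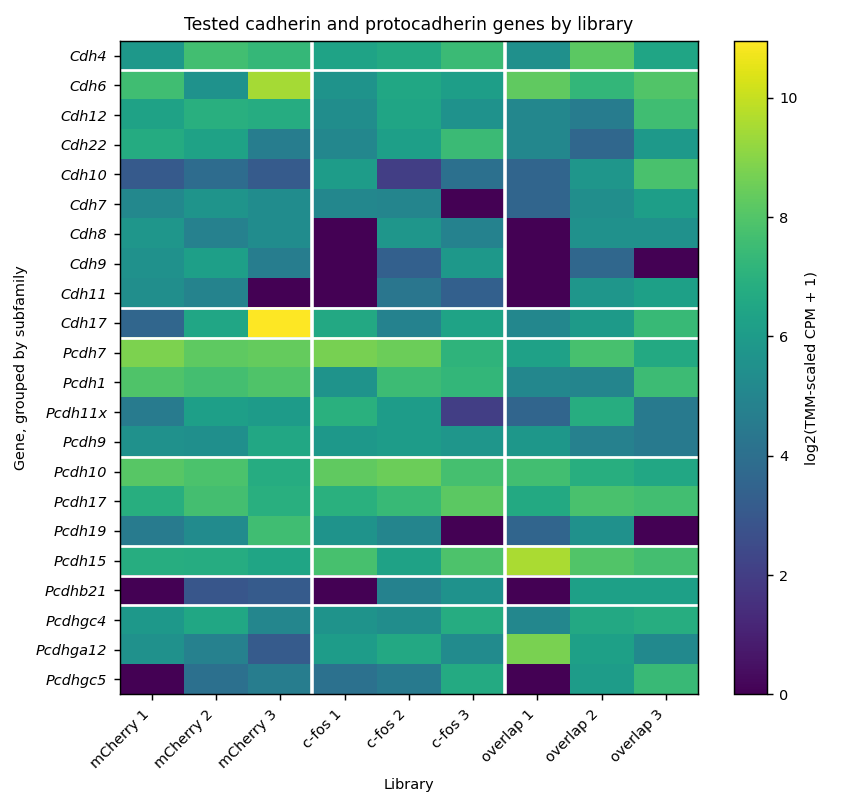
Level of the 22 tested members in each library, as log2 of TMM-scaled CPM plus 1, with genes in rows, grouped by subfamily, and libraries in columns. Cdh17 is brightest in mCherry 3, at 1986 CPM, and Pcdh15 in overlap 1, at 746 CPM.

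Among type I cadherins, the strong classical adhesion molecules, Cdh4 (R-cadherin) was the only tested member. It held 15, 88 and 20 counts in mCherry 1, 2 and 3, then 10, 32 and 56 in c-fos 1, 2 and 3 and 4, 75 and 24 in overlap 1, 2 and 3. Its mean level was 137.5 ± 72.5 CPM in mCherry cells, 119 ± 49.7 in c-fos and 139 ± 131 in overlap, and the 3 groups overlapped in every pairing. Cdh2 (N-cadherin, the main cadherin of excitatory synapses) held 42 counts, 24 in mCherry cells, 9 in c-fos and 9 in overlap, and was too low to be tested. Cdh3 (P-cadherin) held 28 counts, 3 in mCherry cells, 25 in c-fos and 0 in overlap, while Cdh1 (E-cadherin, of epithelia) held 16 and Cdh15 (M-cadherin, of muscle) 3.

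Type II cadherins, which mark nuclei and circuits of the brain, had 8 tested members of 13. Cdh6 held 51, 21 and 90 counts in the mCherry libraries, 6, 29 and 22 in the c-fos libraries and 28, 40 and 71 in the overlap libraries. Cdh12 held 21, 53 and 14, then 5, 28 and 15, then 3, 6 and 54 counts in the same order. For Cdh22 the counts were 28, 35 and 3 in mCherry cells, 4, 23 and 56 in c-fos and 3, 3 and 17 in overlap. These counts also vary with the depth of the library. On the TMM scale Cdh6 ran from 47.1 to 712 CPM in mCherry, Cdh12 from 23.1 to 190.5 in overlap and Cdh22 from 32.4 to 175 in c-fos. The spread was smaller in other groups, such as 48.6 to 90.3 CPM for Cdh6 in c-fos and 79.7 to 119 for Cdh12 in mCherry.

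Cdh10 held 2, 6 and 1 counts in mCherry cells, 8, 1 and 5 in c-fos and 1, 14 and 63 in overlap, so that overlap 3 alone held 62.4% of its counts. Cdh7 held 9, 22 and 5, then 4, 10 and 0, then 1, 11 and 20 counts. Cdh8 held 14, 12 and 5 in mCherry cells, 0, 17 and 9 in c-fos and 0, 12 and 13 in overlap. The zeros of Cdh8 fell in c-fos 1 and overlap 1, the libraries with fewest counts. Cdh9, which in mouse takes part in forming hippocampal mossy fibre synapses, held 12, 32 and 3 counts in mCherry cells, 0, 3 and 18 in c-fos and 0, 3 and 0 in overlap. Cdh11 held 11, 13 and 0, then 0, 6 and 3, then 0, 14 and 21 counts. Of the untested members of the class, Cdh24 held 48 counts, 6 in mCherry cells, 28 in c-fos and 14 in overlap. Cdh5 (VE-cadherin, of endothelium), Cdh18, Cdh19 and Cdh20 held 13, 4, 0 and 9.

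The Cdh genes outside these types were set apart by library mCherry 3. Cdh17 (LI-cadherin, a cadherin of intestinal epithelium with a short cytoplasmic tail) held 3, 39 and 251 counts in mCherry cells, 12, 9 and 26 in c-fos and 3, 16 and 47 in overlap. On the TMM scale it stood at 1986 CPM in mCherry 3 and at 11.4 to 166 CPM in the other 8 libraries. Cdh26 held 120 counts in mCherry 3, a level of 603 CPM of the total, and 0 in the other 8 libraries. Against a floor of 3 counts over the 2000405 counts of those 8 libraries, it was at least 402-fold higher in mCherry 3. Cdh26 did not pass the filter on low counts, and without that filter it and Cdh17 passed an adjusted p under 0.05 in edgeR in c-fos against mCherry and in overlap against mCherry, 2 of 67 members, where 0.973% and 1.32% of all 26012 genes passed. Over the 3 groups the same 2 members passed, with 1.94% of all genes, and in overlap against c-fos 0 members did, with 0.158%. Pancreatic hormone transcripts stood at 9373 CPM in this library and 6 markers of ependyma and choroid plexus, as a sum, at 869.9 CPM, against 15.4 to 155 CPM elsewhere. Of these 6 markers, Foxj1 and Tmem212 were at 0 in every mCherry library. In overlap 1, where the hormone transcripts were higher still at 21978 CPM, Cdh17 held 3 counts and Cdh26 held 0. The part of these transcripts in the levels of Cdh17 and Cdh26 was not tested. Cdh23, which forms the tip links of hair cells together with Pcdh15, held 29 counts, 7 in mCherry cells, 15 in c-fos and 7 in overlap, and Cdh16 held 3.

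All 4 delta-1 protocadherins were tested. Pcdh7 held 118, 134 and 41 counts in mCherry cells, 52, 116 and 45 in c-fos and 7, 57 and 28 in overlap. Pcdh1 held 65, 91 and 31, then 6, 58 and 49, then 3, 8 and 51 counts. Pcdh9 held 12, 19 and 12, then 7, 21 and 17, then 5, 7 and 6 counts. Pcdh9 had the most even counts of the class. Pcdh11x, an X-linked gene, held 6, 32 and 8 counts in mCherry cells, 15, 21 and 1 in c-fos and 1, 29 and 6 in overlap.

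Of the 5 delta-2 protocadherins, 3 were tested. Pcdh10 (OL-protocadherin), which in mouse takes part in axon growth and in activity-driven synapse elimination, held 72, 104 and 14 counts in mCherry cells, 38, 115 and 68 in c-fos and 18, 30 and 27 in overlap. Pcdh17, found at synapses of mouse corticobasal circuits, held 31, 90 and 15, then 15, 54 and 94, then 9, 59 and 56 counts. Pcdh19, an X-linked gene whose loss causes epilepsy in humans, held 6, 17 and 24, then 6, 10 and 0, then 1, 12 and 0 counts. Pcdh17 levels overlapped between all groups, at 146 ± 48.4 CPM in mCherry cells, 194.5 ± 89.0 in c-fos and 174 ± 67.1 in overlap. Pcdh8 (arcadlin, described in rat as a gene induced by neuronal activity) held 16 counts, 4 in mCherry cells, 10 in c-fos and 2 in overlap, too few to be tested, and Pcdh18 held 2.

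Among the other protocadherins outside the clusters, Pcdh15, the partner of Cdh23 in tip links and a marker of oligodendrocyte precursors in brain, held 30, 49 and 11 counts in mCherry cells, 27, 25 and 75 in c-fos and 68, 66 and 58 in overlap. The 68 counts of overlap 1 came from the shallowest library. Pcdh12, an endothelial protocadherin, held 5 counts and Pcdh20 held 10.

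Of the clustered protocadherins, 4 were tested, all with a shared 3' end. Pcdhgc4, which in mouse supports the survival of interneurons, held 15, 41 and 4 counts in mCherry cells, 6, 13 and 35 in c-fos and 3, 25 and 32 in overlap. Pcdhga12 held 12, 12 and 1, then 8, 31 and 12, then 39, 19 and 10 counts. Pcdhgc5 held 0, 7 and 3, then 2, 7 and 33, then 0, 17 and 48 counts. Pcdhb21 held 0, 3 and 1, then 0, 9 and 15, then 0, 19 and 21 counts. For Pcdhgc5 and Pcdhb21 the libraries with 0 counts were found in more than 1 group. The beta genes Pcdhb7, Pcdhb22, Pcdhb17, Pcdhb14, Pcdhb16 and Pcdhb4 held 47, 40, 35, 28, 26 and 24 counts and were not tested. In mCherry, c-fos and overlap, Pcdhb7 held 6, 14 and 27 counts, Pcdhb22 held 28, 12 and 0, and Pcdhb17 held 4, 12 and 19. They were patchy, with 17 of the 28 counts of Pcdhb14 in overlap 1, 18 of the 26 of Pcdhb16 in c-fos 3 and 16 of the 24 of Pcdhb4 in mCherry 3.

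Summed over all 91 members, the level was 2714 ± 711 CPM in mCherry cells, 2464 ± 86.1 in c-fos and 2626 ± 107 in overlap, and the groups overlapped. The sum was 3535 CPM in mCherry 3 and 2281 to 2717 CPM in the other 8 libraries. Without Cdh17 and Cdh26 it was 2058 ± 337 CPM in mCherry cells, 2388 ± 46.6 in c-fos and 2536 ± 168 in overlap. On the TMM scale these became 2339 ± 252, 2201 ± 56.9 and 2407 ± 159 CPM, so the order of mCherry and c-fos depends on the scale. In these captured cells fewer cells of a type and less RNA per cell cannot be told apart.

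The clustered genes, as a sum, stood lowest in mCherry. Their summed level was 219, 270 and 151 CPM in mCherry 1, 2 and 3, then 449, 294.5 and 437 CPM in c-fos 1, 2 and 3 and 810, 616 and 428 CPM in overlap 1, 2 and 3. Every c-fos and every overlap library lay above every mCherry library, and c-fos and overlap libraries overlapped. On the TMM scale the levels were 238 ± 21.98, 362 ± 77.0 and 587 ± 192 CPM, with mCherry again apart. The beta cluster alone overlapped between all groups. It stood at 84.6, 114 and 111 CPM in mCherry cells, 266, 87.0 and 148 in c-fos and 311, 288 and 102.5 in overlap. The gamma cluster alone stood at 135, 151 and 40.2 CPM in mCherry cells, 183, 187 and 286 in c-fos and 477, 328 and 325 in overlap. In the gamma cluster no groups overlapped on either scale, but on the TMM scale the gaps were narrow. There the highest mCherry library was at 146 CPM against 162 in the lowest c-fos library. The highest c-fos library was at 272 CPM against 284 in the lowest overlap library. Sums were not tested, and the direction is given as a description. In the gamma sum 3 genes hold nearly all counts, and Pcdhga12 in overlap 1 alone stands at 428 TMM-scaled CPM. All 21 gamma genes have a shared 3' end. How reads that fit several genes were counted is not stated, so the gamma sum and the clustered sum may leave out reads. Summed markers of GABAergic neurons also stood lowest in mCherry, at 30.2 to 84.6 CPM against 248 to 486 in c-fos and 128.5 to 311 in overlap. Over all libraries Npy and Vip were at 0 and 9 of 11 markers had counts. In overlap, Gad2, Lhx6, Dlx2 and Dlx6os1 were at 0 too, while each of these had counts in mCherry. Markers of meningeal fibroblasts did so too, at 53.6 to 65.4 CPM against 247.5 to 274 and 134 to 300. All 7 had counts over all libraries, with Dcn at 0 in mCherry and Igf2 at 0 in overlap. The part of either marker list in the result was not tested.

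**Figure D3:**
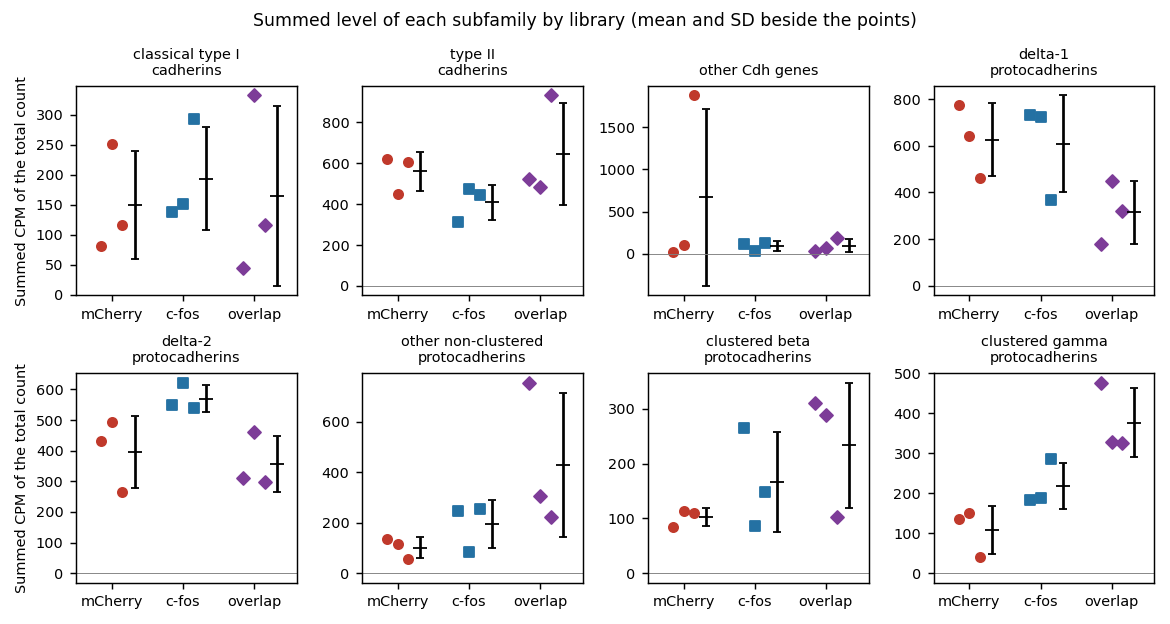
Summed level of each subfamily in each library, in CPM of the total count, 1 panel a subfamily and 1 point a library, with the mean and SD of the group beside the points. The gamma protocadherins run from 40.2 to 151 CPM in mCherry cells, 183 to 286 in c-fos and 325 to 477 in overlap, and the delta-1 protocadherins from 463 to 773, 368 to 733 and 178 to 448.

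The delta-1 protocadherins, as a sum, stood lower in overlap than in mCherry. Of their 1185 counts, Pcdh7 held 598 and Pcdh1 held 362. The sum was 773, 643 and 463 CPM in mCherry cells, 733, 723 and 368 in c-fos and 178, 448 and 322 in overlap. The lowest mCherry library was only just above the highest overlap library on this scale, at 463 against 448 CPM, and was further away on the TMM scale, where mCherry ran from 619 to 763 and overlap from 175.5 to 388 CPM. Summed markers of oligodendrocyte precursors were lower in overlap, at 21.2 to 44.4 CPM against 46.2 to 80.5 in mCherry. In c-fos they stood at 70.3 to 110 CPM. Over all libraries 5 of 6 had counts, with C1ql1 at 0. In overlap, however, 5 of 6 were at 0, so that this sum is Cspg4 alone. In mCherry, Olig1 and Olig2 were at 0 too. The part of these markers in the result was not tested. The delta-2 protocadherins, as a sum, stood highest in c-fos, at 550, 622.5 and 538.5 CPM, against 431, 494 and 266.5 in mCherry and 311, 461 and 297 in overlap. Every c-fos library lay above all others here and on the TMM scale, where c-fos ran from 486 to 579, mCherry from 419 to 475.5 and overlap from 296 to 399.6 CPM. The classical type I cadherins did not separate any groups, at 149 ± 90.2, 193 ± 85.8 and 164.5 ± 149.9 CPM. The type II cadherins stood at 619, 452 and 608.5 CPM in mCherry, 312, 472 and 447 in c-fos and 522, 483 and 933 in overlap. There overlap lay just above c-fos, but not on the TMM scale, and mCherry overlapped both.

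The first comparison set c-fos cells against mCherry cells. No member passed the test over all genes in edgeR (quasi-likelihood test, Benjamini-Hochberg adjusted p under 0.05), with adjusted p from 0.568 to 0.998, and 0 of all 7959 tested genes passed it either. The background share called was thus 0%. An unadjusted p under 0.05 was reached by 2 of the 22 members, Cdh17 and Cdh6, against 7.97% of all genes. DESeq2 called 0 members and 0.0377% of all genes, and limma-voom 0 members and 0.0503% of all genes. Of the fold changes, 10 were positive and 12 negative, with a median log2 fold change of -0.12 where all tested genes had -0.01. The median standard error of a log2 fold change was 0.99 for the members and 1.15 for all tested genes.

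For both members with a small unadjusted p in that comparison the value was smaller or of the other sign without mCherry 3. Cdh17 had a log2 fold change of -3.34 ± 1.25 (SE), and 0.39 ± 1.15 without mCherry 3. Cdh6 stood at 193.5, 47.1 and 712 CPM in mCherry 1, 2 and 3, at 48.6, 90.3 and 68.8 in the c-fos libraries and at 307, 154 and 250 in the overlap libraries. Its c-fos levels lay within the span of the mCherry levels, with a log2 fold change of -2.16 ± 0.84, and of -0.79 ± 0.77 without mCherry 3. Pcdhb21 was next in rank, at 2.35 ± 1.69 over 28 counts in both groups together.

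In no tested member did all c-fos libraries lie above all mCherry libraries, against 9.03% of all tested genes. Cdh3, which was not tested, had this order, at 16.2, 15.6 and 56.25 CPM against 11.4, 0 and 0. It rests on 25 counts in c-fos and 3 in mCherry. In 2 tested members, Pcdh1 and Cdh7, every c-fos library was below every mCherry library, 9.09% of the tested members against 6.87% of all genes. Pcdh1 stood at 247, 204 and 245 CPM in mCherry and at 48.6, 181 and 153 CPM in c-fos (log2 fold change -0.84 ± 0.80, adjusted p = 0.913 in edgeR). Cdh7 stood at 34.1, 49.4 and 39.6 CPM and at 32.4, 31.1 and 0 CPM. The lowest mCherry and the highest c-fos library of Cdh7 differed by less than 1 count's worth.

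The second comparison set cells carrying both labels against mCherry cells. In it, Pcdh15 stood higher and Pcdh7, Pcdh1 and Cdh9 lower in all 3 overlap libraries than in any mCherry library, and none of them passed the test over all genes. No member passed in edgeR, with adjusted p from 0.269 to 0.992, while 0.0251% of all genes did. An unadjusted p under 0.05 was reached by 5 of the 22 members, Pcdh15, Pcdhga12, Cdh17, Cdh10 and Pcdh7, which is 22.7% against 14% of all genes. DESeq2 called 0 members where it called 2.26% of all genes, and limma-voom 0 members where it called 0.465%. There were 10 positive and 12 negative fold changes, with a median of -0.19 where all tested genes had -0.05. With scaling by the 200 genes of highest abundance, where the median of all genes was 0.64, 15 were positive and 7 negative.

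Pcdh15 had the smallest adjusted p of any member in this comparison. It stood at 114, 110 and 87.0 CPM in mCherry 1, 2 and 3, at 219, 77.8 and 234 in c-fos 1, 2 and 3 and at 746, 254 and 205 in overlap 1, 2 and 3. All overlap libraries were above all mCherry libraries, overlap 1 furthest, and the c-fos libraries spread over both sides. The log2 fold change against mCherry was 1.93 ± 0.69 (adjusted p = 0.269 in edgeR, exact permutation p = 0.1, the smallest that 3 libraries against 3 can give). Without overlap 1 the mean level in overlap was 229 CPM and the log2 fold change 1.11 ± 0.70. Oligodendrocyte precursor markers, summed over 6 genes, stood at 46.2 to 80.5 CPM in mCherry, 70.3 to 110 CPM in c-fos and 21.2 to 44.4 CPM in overlap. Over all libraries 5 of 6 had counts, with C1ql1 at 0. In overlap, however, 5 of 6 were at 0, so that this sum is Cspg4 alone. In mCherry, Olig1 and Olig2 were at 0 too. The part of these markers in the result was not tested.

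Pcdh7 lay the other way. It stood at 448, 301 and 324 CPM in mCherry cells, 422, 361 and 141 in c-fos and 76.8, 219 and 98.8 in overlap. Every overlap library was below every mCherry library, while c-fos 3 lay within the overlap range. The log2 fold change against mCherry was -1.42 ± 0.62 (adjusted p = 0.325 in edgeR). Pcdh7, like Pcdh10, Pcdh19, Cdh8, Cdh9 and Pcdhga12, overlaps an antisense gene in the annotation, and reads of both cannot be told apart where strand is not known to have been used.

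Pcdh1 stood at 32.9, 30.7 and 180 CPM in overlap, each below the lowest mCherry library (log2 fold change -1.47 ± 0.82). Cdh9 stood at 45.5, 71.8 and 23.7 CPM in mCherry and at 0, 11.5 and 0 CPM in overlap, which rests on 3 counts in overlap. Members lower in every overlap library were 3 of 22, which is 13.6% against 11% of all genes, and 1 of 22 was higher in every one, which is 4.55% against 6.38%. These shares lie near the background.

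For the other members with a small unadjusted p, the value was much smaller or of the other sign without 1 library. Pcdhga12 stood at 45.5, 26.9 and 7.91 CPM in mCherry and at 428, 73.0 and 35.3 CPM in overlap (log2 fold change 2.62 ± 1.04, adjusted p = 0.289 in edgeR). Without overlap 1 its log2 fold change was 0.93 ± 1.08. Cdh10 stood at 7.59, 13.5 and 7.91 CPM in mCherry and at 11.0, 53.8 and 222 CPM in overlap (3.23 ± 1.37, adjusted p = 0.314), with overlap 3 far above the rest. Without overlap 3 its log2 fold change was 1.69 ± 1.72. Cdh17 had -2.94 ± 1.22, and 0.77 ± 1.15 without mCherry 3.

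**Figure D4:**
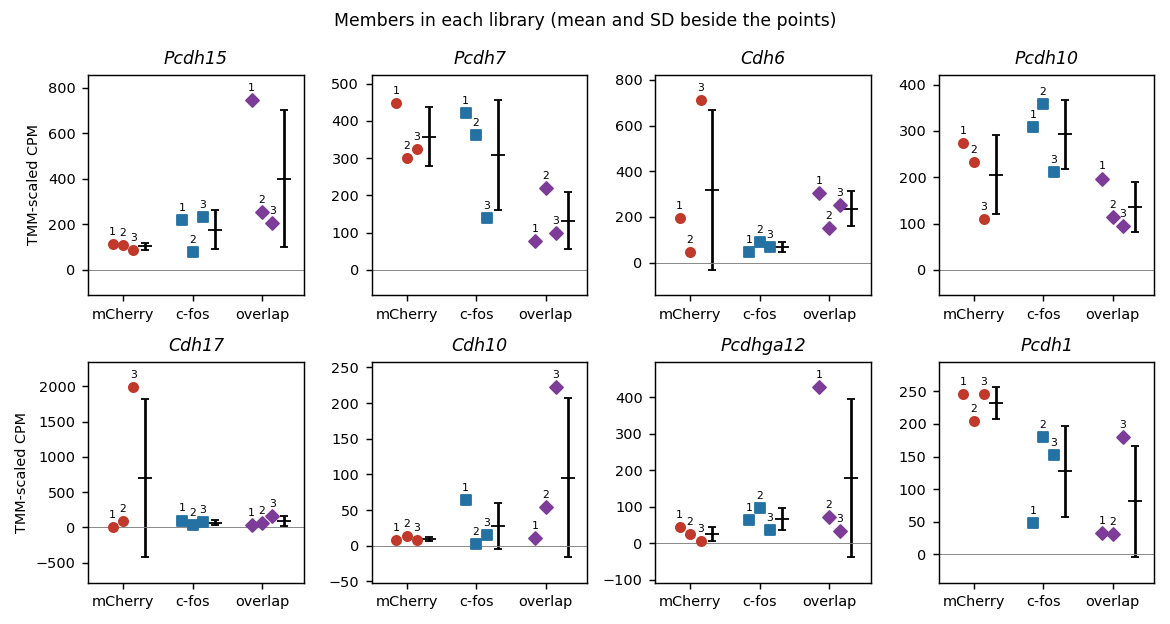
Level of 8 members in each library in TMM-scaled CPM, 1 panel a gene and 1 point a library, numbered by library, with the mean and SD of the group beside the points. Overlap libraries lie above mCherry libraries for Pcdh15 (205 to 746 against 87.0 to 114 CPM) and below them for Pcdh7 and Pcdh1, while Cdh17, Cdh10 and Pcdhga12 are each highest in 1 library far above the others.

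The third comparison set cells carrying both labels against c-fos cells, which share the c-fos label. No member passed in edgeR (adjusted p from 0.947 to 0.996), and 0% of all genes did. No member reached an unadjusted p under 0.05 either, against 5.11% of all genes, while DESeq2 called 0 members and 0.0754% of all genes and limma-voom 0 members and 0.0377%. An unadjusted p under 0.05 was reached by 2 members in DESeq2 and 1 in limma-voom. The median log2 fold change of the members was 0.27, where all tested genes had 0.03, with 13 positive and 9 negative.

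Cdh6 was above the c-fos range in every overlap library, at 307, 154 and 250 CPM against 48.6, 90.3 and 68.8 (log2 fold change 1.75 ± 0.83, adjusted p = 0.947 in edgeR). It was the 1 member of 22 with this order, 4.55% against 4.01% of all genes. Pcdh10 was below the c-fos range in every overlap library, at 197, 115 and 95.2 CPM against 308, 358 and 212.5 (-1.12 ± 0.63), again 1 of 22 against 8.57% of all genes. The mCherry libraries had 273, 233 and 111 CPM of Pcdh10 and overlapped both groups. Pcdh7 had a log2 fold change of -1.20 ± 0.62, with c-fos 3 inside the overlap range. These 3 comparisons share libraries, so their values are set side by side and no similarity between them was computed.

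Over the 3 groups at once, no member passed in edgeR (adjusted p from 0.406 to 0.993), while 0.0377% of all genes did. An unadjusted p under 0.05 was reached by Cdh17 and Pcdh15, 9.09% of the members against 10.3% of all genes. DESeq2 called 0 members and 0.955% of all genes in this test, with 5 members given no adjusted p, and limma-voom 0 members and 0.239%. The levels of the tested members varied between libraries about as much as those of other tested genes. The library with the highest level held a median of 27.8% of a member's level summed over the 9 libraries, and 27.9% for all tested genes. The median coefficient of variation within groups was 0.664 for the members and 0.743 for all tested genes. The share held by 1 library was lowest for Pcdhgc4 and Cdh8, at 18.2%, and highest for Cdh17, at 77.8%.

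**Figure D5:**
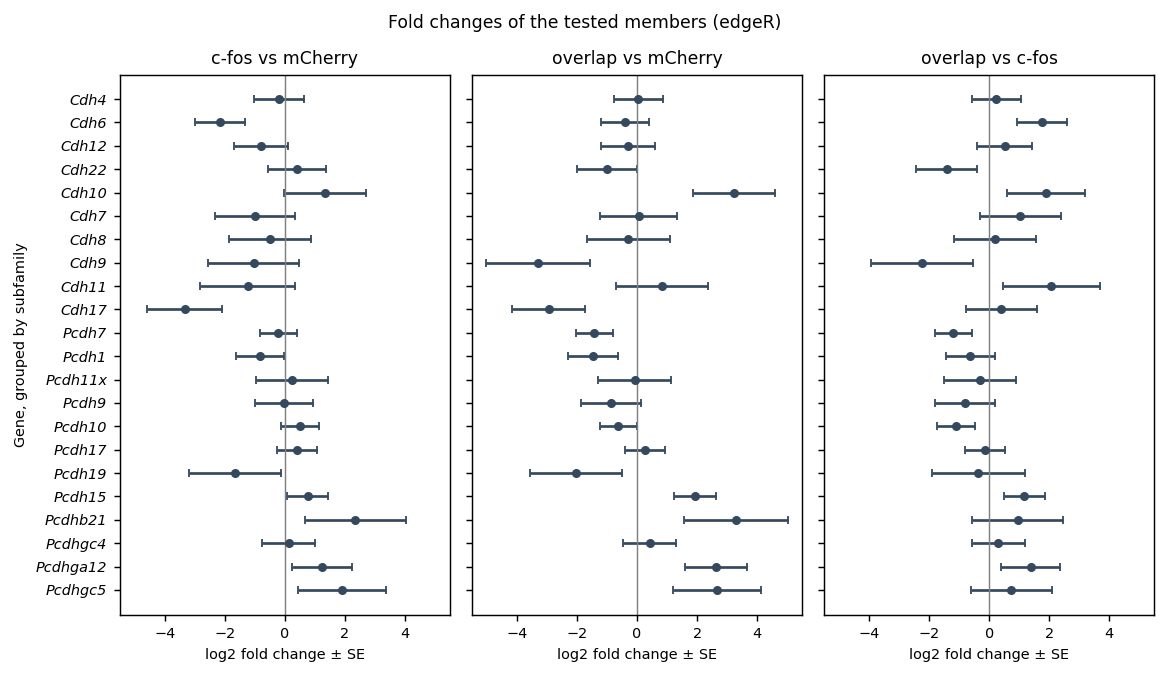
Log2 fold change of the 22 tested members with its standard error in the 3 comparisons, from edgeR, with genes in rows by subfamily. None passed the test over all genes, and values range from -3.34 for Cdh17 to 2.35 for Pcdhb21 in the first panel and from -3.30 for Cdh9 to 3.30 for Pcdhb21 in the second.

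Of 82 further genes of the cadherin pathway, 79 had counts and 40 were tested. In each comparison 0 of them passed in edgeR in either direction. The genes named below have the smallest unadjusted p of their list, so groups that lie apart are to be read against all tested genes. Of all tested genes, 11% were lower in every overlap than in every mCherry library. For overlap below c-fos the share was 8.57%, and for c-fos below mCherry 6.87%. In overlap against mCherry, 31 of the 40 had negative fold changes, where 51.3% of all tested genes had, and 4 had an unadjusted p under 0.05, a share below the 14% of all genes. Among the 9 tested catenins and junction partners, Jup (plakoglobin) stood at 1086, 69.2 and 293 CPM in overlap and 11.4 to 79.1 in mCherry. Overlap 1 and overlap 3 lay above the mCherry range and overlap 2 within it, with a log2 fold change of 3.44 against mCherry and 4.12 against c-fos (adjusted p = 0.2 and 0.749 in edgeR). Ctnnb1 (beta-catenin, the link from classical cadherins to actin) stood at 114, 103 and 127 CPM in mCherry cells, 48.6, 74.7 and 15.6 in c-fos and 0, 61.5 and 42.3 in overlap. Its levels in c-fos and overlap were all below those in mCherry, with log2 fold changes of -1.30 and -1.62 and adjusted p of 0.870 and 0.521 in edgeR. Ctnnd2 (delta-catenin, of dendrites) was highest in mCherry 3, at 649 CPM against 54.8 to 319 elsewhere, and Vcl (vinculin) had 58.5 ± 35.3 CPM in mCherry and 14.95 ± 15.4 in overlap.

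Of the other members of the cadherin superfamily, 7 of 25 were tested. Celsr2, an atypical cadherin of planar polarity, stood at 584, 556 and 641 CPM in mCherry cells, 454, 392.3 and 559 in c-fos and 329, 342 and 349 in overlap. The overlap libraries stood close together and below all others, with a log2 fold change of -0.80 against mCherry (adjusted p = 0.405 in edgeR). Clstn1 (calsyntenin-1) stood at 109 ± 36.4 CPM in mCherry and 39.2 ± 4.35 in overlap, Clstn3 at 1686 ± 440 and 1197 ± 502, and Fat1 at 116 ± 154 and 59.8 ± 39.6. Among regulators of the clustered promoters, of which 11 of 12 were tested, Ctcf, the insulator protein that loops enhancers to the chosen promoter, stood at 334, 343 and 340 CPM in mCherry cells, 316, 283 and 409 in c-fos and 132, 154 and 74.1 in overlap. Every overlap library was below every library of both other groups, with log2 fold changes of -1.50 against mCherry and -1.49 against c-fos (adjusted p = 0.269 and 0.937 in edgeR). Smchd1, a silencer of the clustered genes in mouse, had 57.8 ± 66.6 CPM in mCherry and 200 ± 140 in overlap, while Smc1a and Nipbl of the cohesin system overlapped between those groups.

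Of the WAVE complex and kinases that act below some protocadherins, 10 of 14 were tested and 9 had negative fold changes in overlap against mCherry. Ptk2b, a focal adhesion kinase, stood at 64.5, 141 and 182 CPM in mCherry cells, 32.4, 37.4 and 40.6 in c-fos and 0, 49.95 and 3.53 in overlap (adjusted p = 0.316 in overlap against mCherry in edgeR). All mCherry libraries lay above all others. Taok2, a kinase bound by Pcdh8 in rat, stood at 254, 166 and 1772 CPM in mCherry, highest in mCherry 3, and at 65.8, 65.3 and 123 in overlap. Every overlap library lay below every mCherry library, with a log2 fold change of -3.07 ± 0.82 (adjusted p = 0.18 in edgeR). Fyn had 72.6 ± 39.3 CPM in mCherry and 18.2 ± 17.7 in overlap, and Rac1 had 45.2 ± 39.9 and 177 ± 167. Of 14 genes of cadherin shedding and processing only 3 were tested, Psenen, Furin and Aph1a, with adjusted p in edgeR of 0.817 or more in all comparisons.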

How the data were processed

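Smart-3SEQ libraries of laser-captured cells from 3 groups of 3 were analysed. Per the submitters' processing notes, reads went through Trim Galore, STAR, UMI-tools and featureCounts with build mm9. The sources used here do not state versions, strand setting or how reads that fit several genes were handled. The authors deposited whole-number counts per gene, with no normalization, and totals per library of 90091 to 429317 set the precision.

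Counts were tested in edgeR 4.0.16 (R 4.3.3) with TMM factors, a filter on low counts (filterByExpr, minimum count 10), a quasi-likelihood test over all 3 groups and Benjamini-Hochberg adjustment over 7959 genes at 0.05. DESeq2 1.42.0 and limma-voom (limma 3.58.1) were alternatives. Intervals and floors of 3 counts cover counting error only. Members were chosen by name, and they, the gene lists and the marker lists were chosen with earlier results of these data known. Named are all tested members, untested members with at least 20 counts, and in each pathway list the 4 tested genes with the smallest unadjusted p over the 3 groups, which are thus not typical of their list. Members with fewer counts were named for their known role, after their values were seen. Gene types and exon overlaps came from GENCODE M21, and promoter windows from RefSeq. A member of the Cdh name pattern is not reported here, and Pcdhgb8 was left out as it is not annotated as protein-coding.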

Additional observations from a re-analysis of the deposited data

How the results depend on the processing

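No member passed an adjusted p under 0.05 in edgeR under any scaling, with any library left out, in DESeq2 or in limma-voom. Without the filter on low counts 2 members passed in c-fos against mCherry, 2 in overlap against mCherry and 2 over the 3 groups, Cdh26 and Cdh17 each time, of 67 members tested, while 253, 344 and 504 of 26012 genes passed. Cdh17 changed sign without mCherry 3: its log2 fold change of c-fos against mCherry ran from -3.89 to 0.39 with 1 library left out and was 0.36 without mCherry 3 and overlap 1. In overlap against mCherry it ran from -3.85 to 0.77, was 1.11 without both and 0.14 in limma-voom. Of 216 alternative values of 11 named fold changes, 209 kept direction and side of the threshold. The median log2 fold change of the members was 0.27 (c-fos against mCherry) and 0.55 (overlap against mCherry) with scaling by the 200 genes of highest abundance, where the medians of all genes were 0.34 and 0.64. It was 0.42 in overlap against mCherry without mCherry 3 and overlap 1. With 1 library left out it ran from -0.05 to 0.49 in c-fos against mCherry, highest without mCherry 2. The summed level was 2270 CPM in c-fos and 2493 in overlap on the TMM scale, and 2070 and 2008 CPM without the clustered genes. Members detected per c-fos library were 29.47 at equal depth. With the replicate block 0 members passed in every comparison, and the medians were -0.04, -0.30 and 0.06. Libraries with the same number did not deviate together (correlations from -0.028 to 0.038 over 9 pairs), so the numbers were not taken as pairs. The cause of these changes was not tested. The 69 members that did not pass the filter on low counts, 24 of them at 0, were not tested.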
